A study of Zea mays with 8 samples.

Results

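The data describe how RNA levels differed between the mitotic and the post-meiotic stage of maize (Zea mays) anthers that were homozygous for a mutation in HDA108 (hda108). A gene was included when it reached at least 1 FPKM (fragments scaled to the length of the transcript and to the number mapped in the library) at either stage in hda108 anthers. This rule took 23251 of the 39604 genes of the deposited data. Their highest hda108 value was 1.0001 FPKM in the gene just inside the minimum (GRMZM2G082384) and 0.999998 FPKM in the gene just outside it (GRMZM5G836746).

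The 4 groups were field-grown plants, namely hda108/hda108 mitotic anthers, hda108/hda108 post-meiotic anthers, wild-type (WT) mitotic anthers and WT post-meiotic anthers. Each group had 2 libraries of total RNA depleted of ribosomal RNA, each from anthers pooled over 3 tassels, and the deposited table joins them to 1 value per gene and group. With 1 value per group there is no spread between replicates, so no SD, n or p-value accompanies a value, and no difference was tested. The labels name neither the mutant allele nor which division the mitotic stage refers to.

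Histone deacetylases remove acetyl groups from the tails of histones, which is generally associated with lower transcription of the genes packaged there. In anthers, the cells that undergo meiosis are surrounded by somatic layers. The innermost layer, the tapetum, feeds the developing spores and supplies material for the pollen wall. After meiosis each haploid microspore divides by mitosis into the cells of the pollen grain, which then fills with starch and prepares for the growth of the pollen tube.

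A stage difference is log2(FPKM + 1) at the mitotic stage minus the same at the post-meiotic stage. A gene is called higher or lower at the mitotic stage when this difference is at least 2 in size, which is 4-fold in an abundant gene and more in a scarce one. Ratios divide the deposited FPKM, and a gene listed at 0 has no ratio. In whole anthers, fewer cells of a type and less RNA per cell cannot be told apart.

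HDA108 itself (GRMZM2G136067, chromosome 4, 65983217 to 65988818 in B73 RefGen_v3) was at 4.30 FPKM in mitotic and 4.10 FPKM in post-meiotic hda108 anthers. In WT it was at 6.43 FPKM at the mitotic and 12.3 FPKM at the post-meiotic stage. In the deposited values the gene was therefore lower in hda108 than in WT at both stages but was not absent. At the mitotic stage this order depends on the scaling, since with equal FPKM sums the gene was at 8.50 in hda108 and 5.004 in WT. Under median-ratio scaling it was at 4.88 in hda108 and 7.58 in WT, and under quantile normalization at 4.94 in hda108 and 7.45 in WT, in the deposited order. At the post-meiotic stage it was lower in hda108 under each of these scalings. The labels do not say which part of the gene is mutated, so these levels check the genotype only loosely. Its stage difference was 0.05 in hda108 and -0.84 in WT.

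At the mitotic stage of hda108 anthers, 248 genes were higher and 715 were lower than at the post-meiotic stage. These are 1.07% and 3.08% of the genes included. In WT anthers, by the same rule, 328 of 22775 genes (1.44%) were higher and 356 (1.56%) were lower. The lower genes of hda108 included 10 of 27 photosynthesis, 9 of 42 jasmonate, 8 of 48 cell wall and 3 of 7 chitinase and glucanase genes, whereas the pollen maturation list had 1 of 26 higher, none lower and a median above that of all genes. Most genes differed little, since 18615 (80.1%) had a stage difference of less than 1 in size. The median was -0.28 in hda108 and -0.32 in WT over the same genes, and 16311 genes (70.2%) were below 0 in hda108.

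This split depends on how the stages are put on a common scale. The deposited FPKM summed to 505427 at the mitotic and 701133 at the post-meiotic stage of hda108, and to 1284190 at the mitotic and 1069800 at the post-meiotic stage of WT. After both hda108 stages were rescaled to the same sum, 465 genes were higher and 466 lower, so that higher genes made up 49.9% of the called genes in place of 25.8%. Median-ratio scaling gave 371 higher and 383 lower genes, and quantile normalization gave 454 higher and 538 lower genes. In WT the same scalings gave 213 higher and 463 lower genes (equal sums), 601 and 208 (median ratio) and 325 and 228 (quantile). The median over all genes became 0.12 under equal sums and 0.06 under each of the other scalings. List medians below are those of the deposited values and can be read against -0.28, the median of all genes, and for some lists the distance from it is given. List counts can be read against 1.07% of all genes higher and 3.08% lower.

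**Figure D1:**
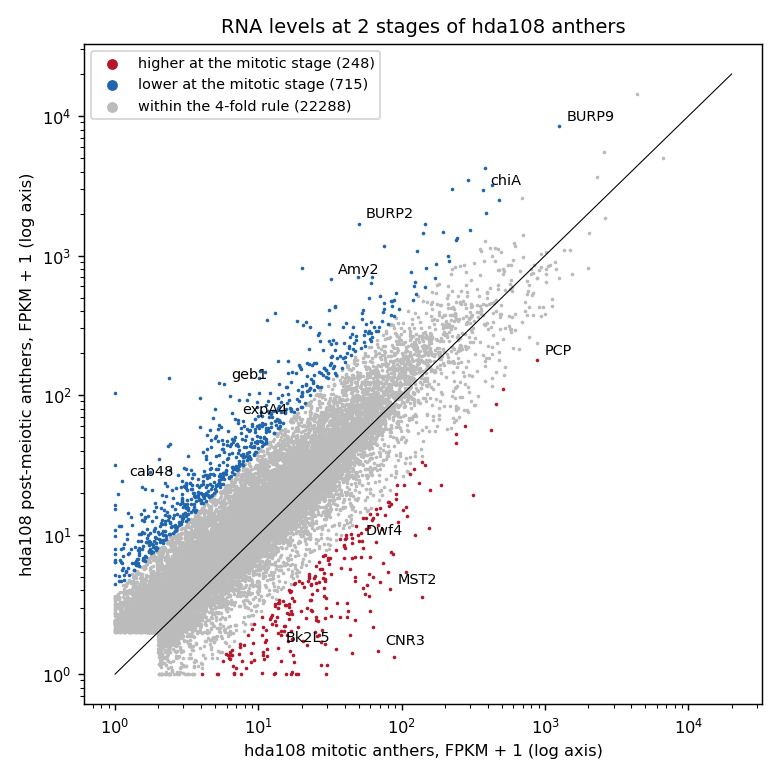
Each point is 1 of 23251 genes, with its FPKM + 1 in hda108 mitotic anthers on the horizontal and in hda108 post-meiotic anthers on the vertical log axis, and the line marks equal levels. The 248 genes called higher at the mitotic stage lie below the line, the 715 called lower lie above it, and the lower genes reach further into the abundant range.

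The lower genes were spread unevenly over abundance. Among 11728 genes with a mean of 1 to 10 FPKM over both hda108 stages, 93 were higher and 224 (1.91%) were lower. Among 9601 genes of 10 to 100 FPKM, 146 were higher and 380 (3.96%) were lower. Among 957 genes of 100 to 1000 FPKM, 9 were higher and 103 (10.8%) were lower. None of the 22 genes above 1000 FPKM was higher, and 8 were lower. The rule reads log2(FPKM + 1), which holds down the difference of scarce genes, and the abundance here is taken from the same values as the difference. Over the 10 chromosomes, the share of genes called lower ran between 2.84% (chromosome 6) and 3.82% (chromosome 5), and the share called higher between 0.663% (chromosome 10) and 1.38% (chromosome 2).

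Among the higher genes, the named gene with the largest difference was CNR3 (GRMZM2G053387, chromosome 5, 1761260 to 1762309), of the cell number regulator family. It was at 67.7 FPKM at the mitotic and 0.473 FPKM at the post-meiotic stage of hda108, and at 396 and 86.2 FPKM at those stages in WT. MST2 (GRMZM2G141034), a monosaccharide transporter, was at 82.3 FPKM at the mitotic and 3.07 FPKM at the post-meiotic stage, a ratio of 26.8. In WT it was at 827 FPKM at the mitotic and 137 FPKM at the post-meiotic stage. Both genes thus had their highest value in WT mitotic anthers and their lowest in hda108 post-meiotic anthers.

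The same order of the 4 groups held for Bk2L5, a brittle stalk2-like gene of the COBRA-like cell wall family. It was at 12.8 FPKM at the mitotic and 0.543 FPKM at the post-meiotic stage of hda108, against 204 FPKM and 44.9 FPKM at those stages in WT. ARGOS9, of a family that affects organ size, was at 12.7 FPKM at the mitotic and 0.967 FPKM at the post-meiotic stage of hda108. Its WT values were 94.8 FPKM at the mitotic and 20.1 FPKM at the post-meiotic stage. mlo6, a member of the MLO family of membrane proteins, was at 27.8 FPKM at the mitotic and 4.28 FPKM at the post-meiotic stage of hda108, against 165 FPKM and 73.1 FPKM in WT.

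Dwf4, which encodes a brassinosteroid synthesis enzyme, did not follow that order. It was at 49.1 FPKM at the mitotic and 8.02 FPKM at the post-meiotic stage of hda108, against 28.0 FPKM and 2.94 FPKM in WT. Its level was higher in hda108 than in WT at both stages, and it was higher at the mitotic stage in both genotypes. GST39, a glutathione transferase, was at 12.98 FPKM at the mitotic and 2.23 FPKM at the post-meiotic stage of hda108. In WT it stayed at 0.208 FPKM at the mitotic and 0.146 FPKM at the post-meiotic stage, so that its stage difference was 2.11 in hda108 and 0.08 in WT. PCP, listed with the tapetum and pollen wall genes, was the most abundant of the named higher genes, at 882 FPKM at the mitotic and 177 FPKM at the post-meiotic stage of hda108. In WT it was at 10802 FPKM at the mitotic and 5236 FPKM at the post-meiotic stage.

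The name zmm2, of the MADS-box family of floral regulators, was matched to a pair of genes on chromosome 5. The one at 177275444 to 177279005 (GRMZM2G492156) was at 5.57 FPKM at the mitotic and 0.367 FPKM at the post-meiotic stage of hda108, and was called higher. The other (GRMZM2G316366, 177268177 to 177269968) was at 2.42 FPKM at the mitotic and 0.499 FPKM at the post-meiotic stage, a difference of 1.19. Genes of 1 name that may be near-identical copies can share fragments, so their separate values are uncertain. The other 30 of 31 MADS-box genes stayed within the size rule, and the list's median was -0.45.

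Of the 5 largest positive differences, 4 belonged to genes for which no name was matched. GRMZM2G003838 (chromosome 3, 205178928 to 205180093) was at 86.8 FPKM at the mitotic and 0.328 FPKM at the post-meiotic stage of hda108. GRMZM2G173738 (chromosome 2) was at 136 FPKM at the mitotic and 2.56 FPKM at the post-meiotic stage, and GRMZM2G309944 (chromosome 8) was at 44.3 FPKM at the mitotic and 0.411 FPKM at the post-meiotic stage. GRMZM2G158593 (chromosome 2) was at 28.8 FPKM at the mitotic stage and listed at 0 at the post-meiotic stage. In WT all 4 were higher at the mitotic stage too, with stage differences of 3.86 for GRMZM2G003838, 2.76 for GRMZM2G173738, 5.65 for GRMZM2G309944 and 3.44 for GRMZM2G158593.

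**Figure D2:**
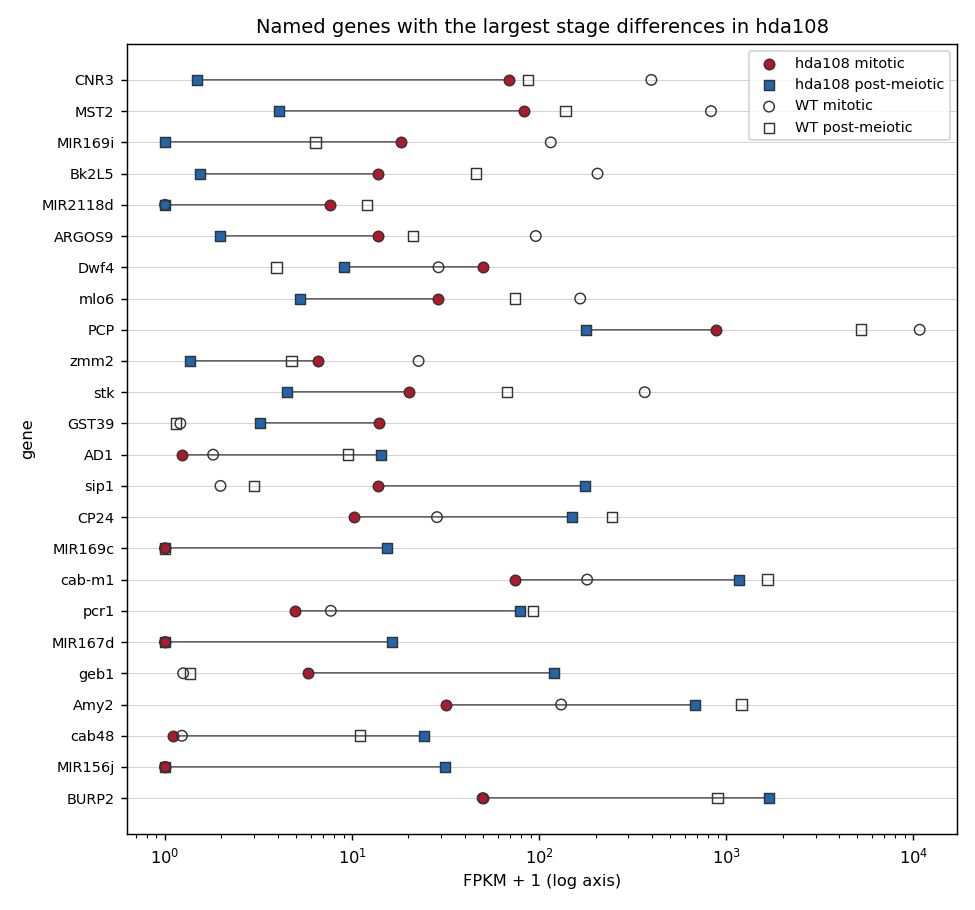
FPKM + 1 on a log axis for the 12 named genes furthest above 0 and the 12 furthest below 0 in hda108 stage difference, with circles for mitotic and squares for post-meiotic anthers, filled for hda108 and open for WT. CNR3, MST2, Bk2L5 and ARGOS9 have both hda108 points left of their WT points, whereas geb1 and sip1 have both hda108 points to the right of theirs.

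Photosynthesis genes were among the lists with the lowest medians. Of 27 members included, 10 were lower at the mitotic stage and none was higher, and the median was -1.58, a distance of -1.299 from that of all genes. In WT, 9 of the same 27 were lower and the median was -1.62. The chitinases and glucanases had the lower median under quantile normalization, -1.41 against -1.24, and the photosynthesis list as first matched had a median of -1.25. The genes encode proteins that bind chlorophyll and feed light energy to the photosystems, subunits of those photosystems, and enzymes of carbon fixation. Under equal sums 8 of them stayed past the rule, and psad1 and rbcS did not.

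Among the antenna proteins, cab48 was at 0.110 FPKM at the mitotic and 23.2 FPKM at the post-meiotic stage of hda108. cab-m1 (GRMZM2G351977, chromosome 8, 141176050 to 141177936) was at 73.6 FPKM at the mitotic and 1165 FPKM at the post-meiotic stage. lhcb6, also named CP24, was at 9.21 FPKM at the mitotic and 148 FPKM at the post-meiotic stage. All 3 were lower at the mitotic stage in WT as well, where cab-m1 was at 179 FPKM at the mitotic and 1655 FPKM at the post-meiotic stage. psa6, a subunit of photosystem I, was at 126 FPKM at the mitotic and 1071 FPKM at the post-meiotic stage of hda108. A small subunit of Rubisco, rbcS (GRMZM2G098520), was at 19.2 FPKM at the mitotic and 98.1 FPKM at the post-meiotic stage. GAPA, a subunit of the dehydrogenase that reduces the products of carbon fixation, was at 54.9 FPKM at the mitotic and 320.1 FPKM at the post-meiotic stage of hda108, against 103 FPKM and 475 FPKM in WT. The most abundant of the lower photosynthesis genes was lhcb7, another antenna gene, at 139.97 FPKM at the mitotic and 1450.5 FPKM at the post-meiotic stage of hda108, against 343 FPKM and 1795 FPKM in WT.

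The chloroplast's own genes differed less. Of 23 plastid-encoded genes included, none was past the rule, the stage differences ran between -1.36 and 0.01, and the median was -0.46. In WT the same genes had a median of -1.60 and 3 were lower. Mitochondrion-encoded genes were on the other side of zero, with 37 of 47 above 0 in hda108 and a median of 0.24, against a median of -0.94 in WT. They made up 2.69% of the FPKM sum at the mitotic and 1.56% at the post-meiotic stage of hda108, and 0.820% and 1.303% at those stages in WT. Most transcripts of plant organelles are not polyadenylated, and these libraries were made by ribosomal depletion.

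Chitinases and glucanases, which cut chitin and callose-like glucans and are known from defence and from the remodelling of anther walls, had 3 of 7 genes lower at the mitotic stage of hda108. Their median was -1.54, a distance of -1.25 from that of all genes, against a WT median of 0.11 with none of 7 past the rule. chiA (GRMZM2G051943, chromosome 2, 34162587 to 34163936), a chitinase, was at 370.4 FPKM at the mitotic and 2928 FPKM at the post-meiotic stage of hda108, against 49.0 FPKM and 22.8 FPKM in WT. geb1 (GRMZM2G065585, chromosome 3), a glucanase also named pr6, was at 4.79 FPKM at the mitotic and 119 FPKM at the post-meiotic stage of hda108, against 0.251 FPKM and 0.361 FPKM in WT. All 7 genes were below 0 in hda108, and 5 of 7 were above 0 in WT. The summed level of the 7 was 927 FPKM at the mitotic and 4405 FPKM at the post-meiotic stage of hda108, against 135 FPKM and 81.7 FPKM in WT.

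The glucanase Gns1, the third of the lower genes, was at 73.5 FPKM at the mitotic and 393 FPKM at the post-meiotic stage of hda108, against 5.39 FPKM and 5.51 FPKM in WT. Its difference of -2.40 became -1.94 under equal sums and so left the rule. Among pathogenesis-related genes and proteinase inhibitors, 3 of 19 were lower and none was higher, with geb1 counted here again. Another of them, PR-1, was also counted with the cell wall under its name prp4, a place that rests on the symbol alone. sip1 (GRMZM2G374971, chromosome 7, 160254707 to 160256026) was at 12.8 FPKM at the mitotic and 175 FPKM at the post-meiotic stage of hda108. In WT it was at 0.979 FPKM at the mitotic and 2.00 FPKM at the post-meiotic stage. rip2, which encodes a ribosome-inactivating protein, was at 134 FPKM at the mitotic and 300.3 FPKM at the post-meiotic stage of hda108, which is within the rule, and at 3.84 FPKM and 5.72 FPKM in WT.

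Jasmonates are lipid-derived hormones, made from fatty acids by lipoxygenases, that are needed for anther dehiscence and for tassel sex determination. ZIM and TIFY proteins include the repressors of their signalling. Of 42 genes of this list, 9 were lower and none higher at the mitotic stage of hda108, with a median of -0.88, a distance of -0.59 from that of all genes. In WT, 1 of the same genes was lower and the median was -0.24. Under equal sums 5 of the 9 stayed past the rule, and ZIM4, ZIM18, ZIM28 and lox7 did not.

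The lipoxygenase ts1 was at 22.6 FPKM at the mitotic and 164 FPKM at the post-meiotic stage of hda108, against 72.8 FPKM and 251 FPKM in WT. ts2, a dehydrogenase gene also known from tassel sex determination, was at 5.93 FPKM at the mitotic and 35.3 FPKM at the post-meiotic stage of hda108, against 18.4 FPKM and 29.2 FPKM in WT. Both tasselseed genes stayed past the rule under equal sums, at -2.36 for ts1 and -2.01 for ts2. Among the repressor family, ZIM10 (GRMZM2G173596, chromosome 5) was at 6.54 FPKM at the mitotic and 56.9 FPKM at the post-meiotic stage of hda108, against 2.94 FPKM and 29.6 FPKM in WT. TIFY10 was at 11.03 FPKM at the mitotic and 73.3 FPKM at the post-meiotic stage of hda108, against 70.6 FPKM and 103 FPKM in WT. ZIM10 therefore had a like stage difference in both genotypes (-2.94 in hda108 and -2.96 in WT), whereas that of TIFY10 was -2.63 in hda108 and -0.53 in WT. TIFY4, the most abundant of the list, was at 225 FPKM at the mitotic and 798 FPKM at the post-meiotic stage of hda108 and stayed within the rule at -1.82.

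**Figure D3:**
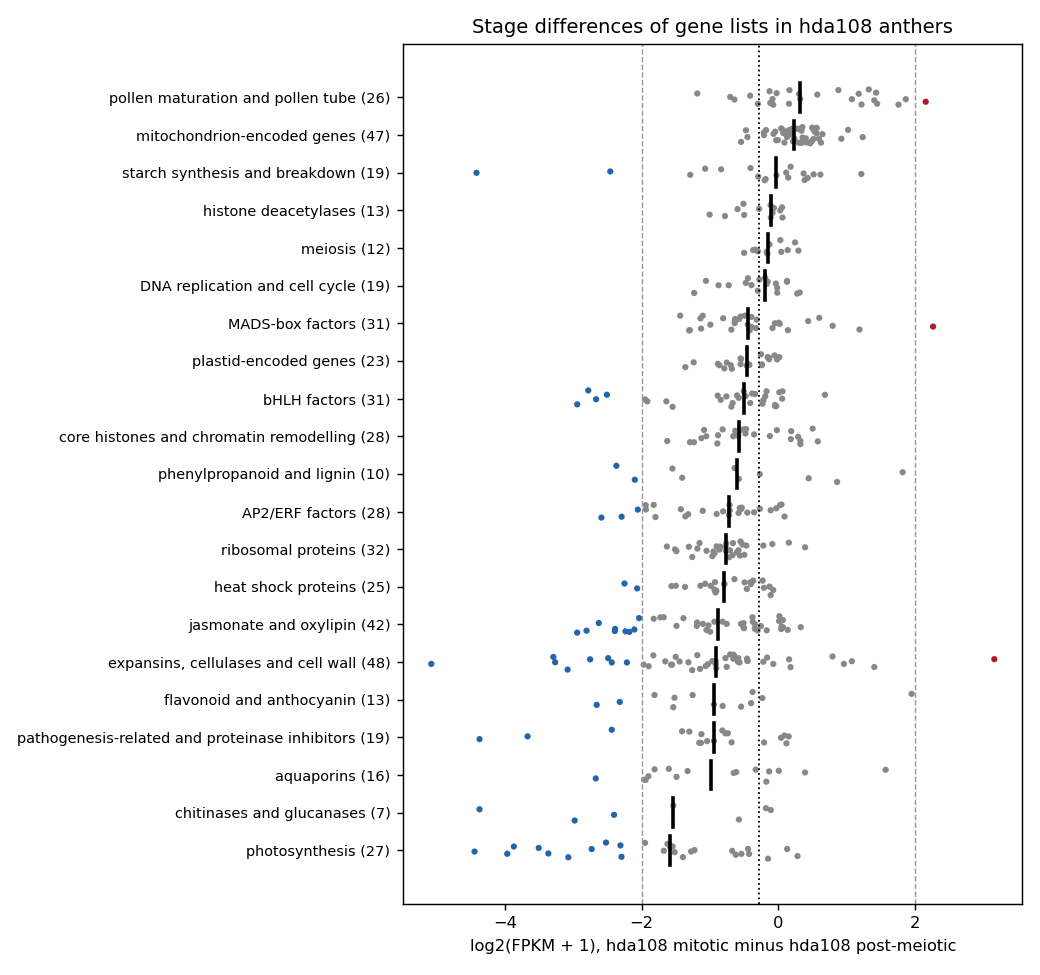
Stage differences in hda108 (mitotic minus post-meiotic, log2 of FPKM + 1) of the members of 21 gene lists, with 1 point per gene, the number of genes in brackets, a black bar at each list's median, a dotted line at the median of all genes (-0.28) and dashed lines at the size rule. The photosynthesis list has its median at -1.58 and the pollen list at 0.31.

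Genes of the cell wall were mostly below the typical gene, with 8 of 48 lower, 1 higher and a median of -0.92, against 3 lower, 2 higher and a median of -0.08 in WT. Among the 8 is prp4, also named PR-1, whose place on this list rests on its symbol alone. BURP2 (GRMZM2G113229, chromosome 1, 183811716 to 183813646), a BURP-domain protein, was at 48.9 FPKM at the mitotic and 1684 FPKM at the post-meiotic stage of hda108. In WT it was at 48.8 FPKM at the mitotic and 894 FPKM at the post-meiotic stage. expA4, an expansin that loosens cell walls, was at 5.89 FPKM at the mitotic and 66.4 FPKM at the post-meiotic stage of hda108, against 68.6 FPKM and 83.2 FPKM in WT. The low value of expA4 thus stood in hda108 mitotic anthers alone.

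BURP9 was among the most abundant genes of all, at 1249 FPKM at the mitotic and 8426 FPKM at the post-meiotic stage of hda108, against 544 FPKM and 6323 FPKM in WT. Its difference of -2.75 became -1.03 under quantile normalization and so left the rule. The endoglucanase Cel18/34 was at 16.1 FPKM at the mitotic and 144 FPKM at the post-meiotic stage of hda108, and CesA12, a cellulose synthase subunit, was at 1.23 FPKM at the mitotic and 11.5 FPKM at the post-meiotic stage. bk2, another COBRA-like gene and the namesake of Bk2L5, was at 0.435 FPKM at the mitotic and 5.66 FPKM at the post-meiotic stage of hda108, so these relatives were called in opposite directions. The call of bk2 ended under median-ratio (-1.97) and quantile (-1.95) scaling.

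Aquaporins, the water channels of the plasma membrane and vacuole, had 1 of 16 genes lower and a median of -0.99, against -0.22 in WT. NIP1-1 was at 15.0 FPKM at the mitotic and 101 FPKM at the post-meiotic stage of hda108. The plasma membrane channel PIP1-1 had the list's highest value at the post-meiotic stage of hda108, at 356 FPKM at the mitotic and 1083 FPKM at the post-meiotic stage of hda108, against 443 FPKM and 649 FPKM in WT. TIP1-2, a channel of the vacuole membrane, had the highest value at the mitotic stage, at 802 FPKM at the mitotic and 798 FPKM at the post-meiotic stage of hda108, against 5338 FPKM and 4574 FPKM in WT. TIP2-3, of the same family, had the list's largest positive difference, 1.57, at 2.68 FPKM at the mitotic and 0.239 FPKM at the post-meiotic stage.

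Flavonoid and anthocyanin genes, which make the coloured and ultraviolet-absorbing phenolics of the tassel, had 2 of 13 lower and a median of -0.94, against -0.15 in WT. c2, a chalcone synthase, was at 3.27 FPKM at the mitotic and 25.9 FPKM at the post-meiotic stage of hda108, against 2.27 FPKM and 2.71 FPKM in WT. R-S, a regulator that activates anthocyanin genes, was at 28.8 FPKM at the mitotic and 6.72 FPKM at the post-meiotic stage of hda108, against 76.8 FPKM and 168 FPKM in WT. Its stage difference was 1.95 in hda108 and -1.12 in WT, on the other side of zero from c2 and chi1, and it passed the rule under each of the other scalings (2.46 under equal sums). chi1, a chalcone isomerase, was at 90.9 FPKM at the mitotic and 266 FPKM at the post-meiotic stage of hda108, within the rule, whereas its WT values were 1297 FPKM at the mitotic and 541 FPKM at the post-meiotic stage.

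**Figure D4:**
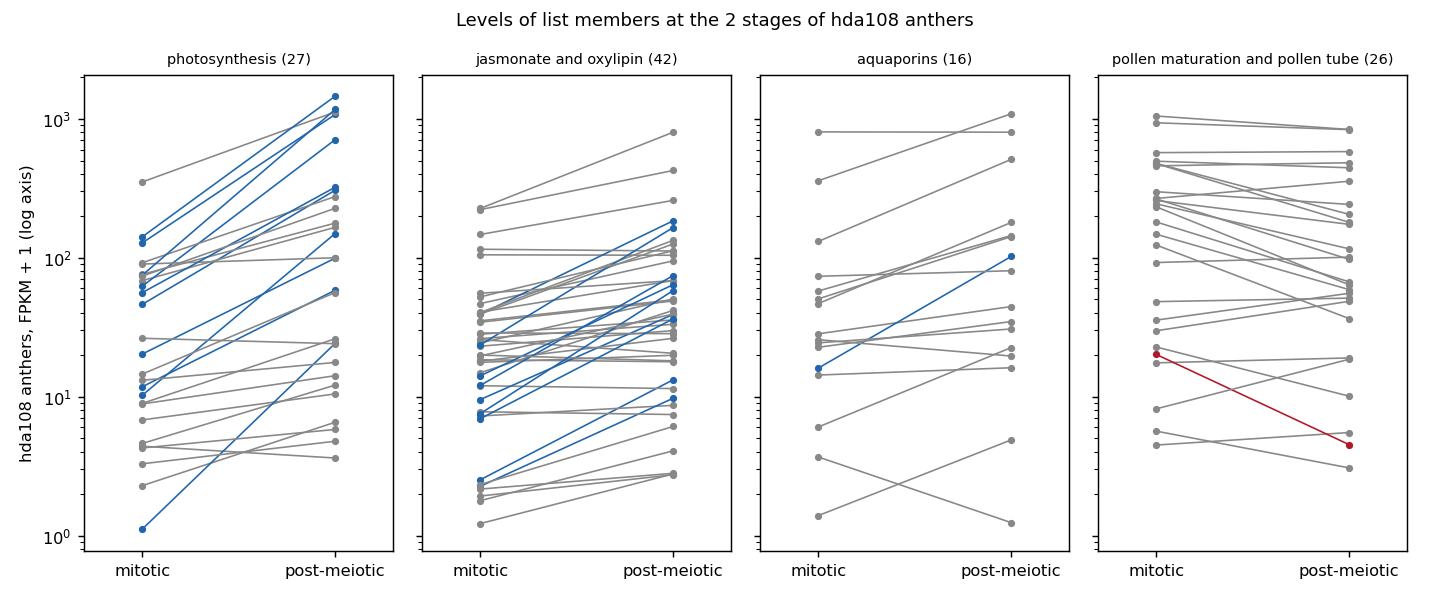
FPKM + 1 (log axis) of each member of 4 lists in hda108 mitotic and hda108 post-meiotic anthers, with 1 line per gene, red for genes called higher and blue for genes called lower at the mitotic stage. In the photosynthesis panel 10 of 27 lines are blue, in the jasmonate panel 9 of 42, in the aquaporin panel 1 of 16, and in the pollen panel 1 of 26 is red.

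Genes of pollen maturation and pollen tube growth had a median of 0.31 in hda108, a distance of 0.60 from that of all genes. This was the highest of the lists as used here, but the list as first matched by symbol had a median of 0.16, below the 0.24 of the mitochondrion-encoded genes. Of 26 included, 1 was higher and none was lower, and 16 were above 0. In WT 3 were higher, 20 were above 0 and the median was 0.51. stk1, a protein kinase gene, was at 19.1 FPKM at the mitotic and 3.51 FPKM at the post-meiotic stage of hda108, against 365 FPKM and 66.4 FPKM in WT. EXPB10, a beta-expansin of grass pollen, was at 474 FPKM at the mitotic and 178 FPKM at the post-meiotic stage of hda108, against 2643 FPKM and 1421 FPKM in WT. The summed level of the 26 genes was 6725 FPKM at the mitotic and 5058 FPKM at the post-meiotic stage of hda108. It was 38465 FPKM at the mitotic and 23426 FPKM at the post-meiotic stage of WT. Under the other scalings none of these genes became lower, and the number of higher genes was 3 under equal sums and median-ratio scaling and 8 under quantile normalization.

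Markers of cell types that anthers could hold were summed by group. The green-tissue and pollen markers are in part the genes of the photosynthesis and pollen lists above, so their sums are not a separate observation. The 22 green-tissue genes found summed to 1256 FPKM at the mitotic and 7164 FPKM at the post-meiotic stage of hda108, and to 1843 FPKM and 7968 FPKM in WT. The 8 pollen genes summed to 3873 FPKM at the mitotic and 2869 FPKM at the post-meiotic stage of hda108, and to 21904 FPKM and 14396 FPKM in WT. The 5 tapetum genes summed to 55.9 FPKM at the mitotic and 85.2 FPKM at the post-meiotic stage of hda108, and to 88.0 FPKM and 138 FPKM in WT. Most of these hda108 sums was the gene ms32, at 51.2 FPKM at the mitotic and 52.3 FPKM at the post-meiotic stage. The 4 meiosis genes summed to 17.1 FPKM at the mitotic and 20.5 FPKM at the post-meiotic stage of hda108, and to 8.53 FPKM and 22.1 FPKM in WT. Single markers went against their sums, such as EXPB1 among the pollen markers, at 457 FPKM at the mitotic and 481 FPKM at the post-meiotic stage of hda108, and Dmc1 among the meiosis markers, at 2.59 FPKM and 2.03 FPKM. None of these markers was listed at 0 at either stage of hda108. Their part in the results above was not tested.

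Within the tapetum markers, ms23, a bHLH regulator of tapetal development, was at 3.004 FPKM at the mitotic and 21.8 FPKM at the post-meiotic stage of hda108, against 23.7 FPKM and 46.7 FPKM in WT. It was one of 4 of 31 bHLH genes that were lower, beside PIF4, bHLH116 and bHLH108, where 3.08% of all genes were lower. In WT 4 of the same 31 were lower, PIF4, bHLH116 and bHLH108 among them. PIF4 was at 1.87 FPKM at the mitotic and 21.1 FPKM at the post-meiotic stage of hda108, against 0.418 FPKM and 9.45 FPKM in WT. ms8, which encodes a putative galactosyltransferase, was also lower, at 0.474 FPKM at the mitotic and 7.02 FPKM at the post-meiotic stage of hda108, against 0.0555 FPKM and 0.608 FPKM in WT. ms32, another bHLH gene needed in the tapetum, was at 51.2 FPKM at the mitotic and 52.3 FPKM at the post-meiotic stage of hda108 and did not follow ms23 and ms8.

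Of 31 genes on the sugar list 1 was higher and 1 lower, and of 19 on the starch list 2 were lower and none was higher. incw3, a cell wall invertase that splits sucrose outside the cell, was at 18.4 FPKM at the mitotic and 158 FPKM at the post-meiotic stage of hda108, opposite to the transporter MST2. Amy2, an amylase that breaks down starch, was at 30.8 FPKM at the mitotic and 679 FPKM at the post-meiotic stage of hda108, against 129.9 FPKM and 1205 FPKM in WT. It shares its deposited locus with another gene, as do 1546 of the genes included. gla3 was the other lower gene of the starch list, at 84.8 FPKM at the mitotic and 471 FPKM at the post-meiotic stage, and its difference of -2.46 became -1.99 under equal sums. The starch synthesis enzyme ss1 had 60.7 FPKM at the mitotic and 25.6 FPKM at the post-meiotic stage, within the rule.

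Among other hormone and regulator lists, abscisic acid and carotenoid genes had 2 of 31 lower. HYD3, a carotene hydroxylase, was at 15.1 FPKM at the mitotic and 175 FPKM at the post-meiotic stage of hda108, against 146 FPKM and 704 FPKM in WT, and the receptor gene PYL3 was at 3.79 FPKM and 26.3 FPKM at those stages of hda108. Of the AP2/ERF factors 3 of 28 were lower, of the NAC factors 2 of 15, of the MYB factors 1 of 39 and of the bZIP factors 1 of 37, with none higher in these lists. The AP2/ERF gene dbf2 was at 4.91 FPKM at the mitotic and 28.0 FPKM at the post-meiotic stage of hda108, against 27.9 FPKM and 26.5 FPKM in WT, and its difference of -2.29 became -1.93 under equal sums. No WRKY factor (15 genes) and no homeobox factor (27 genes) was past the rule. Over all genes 3.08% were lower and 1.07% higher, and the MYB, bZIP, WRKY and homeobox counts are near that share.

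Lists of the chromosome and cell division machinery showed no called gene. This held for 19 genes of DNA replication and the cell cycle (median -0.19), 12 of meiosis (-0.14), 28 core histone and chromatin genes (-0.58) and 15 of DNA methylation and small RNA pathways (0.01). It held as well for the 13 histone deacetylases and their partners (-0.11) and for 32 ribosomal proteins (-0.76). Over all genes 1.07% were higher and 3.08% lower, and at that share lists this short can be without a called gene. The medians of the meiosis, cell cycle and deacetylase lists turned positive under each of the other scalings, so no direction is given for them. In WT the DNA methylation and small RNA list had a median of -0.64 and the deacetylase list one of -0.63. Of the deacetylases, HDT1 had the largest stage difference in hda108, at 45.2 FPKM at the mitotic and 91.7 FPKM at the post-meiotic stage.

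MicroRNA precursors are short hairpin transcripts from which microRNAs are cut. Of 154 in the deposited data, 137 were listed at 0 in all 4 groups and 11 were included here, from 8 families. Of these, 3 were higher and 6 were lower, beside 1.07% and 3.08% of all genes, but 8 of the 11 were listed at 0 at 1 stage of hda108. These 8 passed the FPKM minimum through their other stage alone and were all called. The counts therefore follow in part from that minimum. MIR156j was listed at 0 at the mitotic stage and was at 30.4 FPKM at the post-meiotic stage of hda108, and was listed at 0 at both stages of WT. MIR164c, which was above 0 in all groups, was at 6.86 FPKM at the mitotic and 35.1 FPKM at the post-meiotic stage of hda108, against 15.2 FPKM and 10.6 FPKM in WT. Its difference of -2.20 became -1.81 under equal sums. FPKM of such short loci rest on few fragments for their length, and 4 of the 11 share a locus with another gene.

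The MIR169 family, whose microRNAs target NF-YA transcription factors, gave 4 of the 11. MIR169i (chromosome 4, 47269334 to 47269525) was at 17.2 FPKM at the mitotic stage and listed at 0 at the post-meiotic stage of hda108, against 114 FPKM and 5.36 FPKM in WT. MIR169c, MIR169j and MIR169o were the reverse in hda108, listed at 0 at the mitotic stage and at 14.3, 6.20 and 8.83 FPKM at the post-meiotic stage. All of these last were listed at 0 at both stages of WT, so members of 1 family were called in opposite directions. MIR169c, MIR169j and MIR169o each share their deposited locus with another gene, over spans of 1266, 4532 and 1076 bases, whereas MIR169i has a locus of its own, so this contrast rests on values that cannot be assigned to the precursors alone.

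Called genes sometimes lay next to each other. In the order of the deposited starts, 90 of the 715 lower genes stood in 43 runs of adjacent included genes and 16 of the 248 higher genes in 8 pairs. No run was longer than 3 genes. With 3.08% of all genes lower and 1.07% higher, some would adjoin wherever they lay, and that number was not worked out. On chromosome 2, GRMZM2G137883 (start 107109419), GRMZM2G035049 (start 107485395) and GRMZM2G154235 (start 107709160) were lower together. Genes adjacent in this order can thus lie far apart. GRMZM2G035049 was at 21.7 FPKM at the mitotic and 304 FPKM at the post-meiotic stage of hda108, against 0.782 FPKM and 44.9 FPKM in WT. Adjacent genes can overlap or be pieces of 1 gene model, and 3 of the higher pairs and 3 of the lower runs hold genes that share their start.

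Some of the called genes were also called in WT. Of the 248 higher genes, 132 were higher in WT too, which is 53.2% of the hda108 list and 40.2% of the WT list. Of the 715 lower genes, 162 were lower in WT too, which is 22.7% of the hda108 list and 45.5% of the WT list. Beside these, 301 of all 23251 genes were higher in WT and 337 were lower. The stage difference had the same sign in WT for 237 (95.6%) of the higher and 632 (88.4%) of the lower genes. Over all 23251 genes, 6469 were above 0 in WT. Over all genes, the sign of the higher genes was therefore the less common one in WT, and that of the lower genes the more common one. Over the lower genes the median stage difference was -2.39 in hda108 and -1.13 in WT, and over the higher genes it was 2.56 in hda108 and 2.09 in WT. The hda108 values chose these genes, so the larger size there follows in part from the choice.

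The higher genes were mostly less abundant in hda108 than in WT. The median of the 248 higher genes was 25.2 FPKM at the mitotic and 2.39 FPKM at the post-meiotic stage of hda108, against 249 FPKM and 45.6 FPKM in WT. At the mitotic stage 234 of them, and at the post-meiotic stage 239 of them, were below their WT value. The median of the 715 lower genes was 4.63 FPKM at the mitotic and 32.6 FPKM at the post-meiotic stage of hda108, against 11.5 FPKM and 32.4 FPKM in WT. Of the lower genes, 520 were below WT at the mitotic and 344 at the post-meiotic stage. The calls were made on these same hda108 values. They favour a low post-meiotic value in higher genes and a low mitotic value in lower genes, so the 239 and the 520 follow in part from the choice. For the 234 and the 344 the choice works the other way. It favours a high mitotic value in higher genes and a high post-meiotic value in lower genes. Of all 23251 genes, 11434 were below WT at the mitotic and 11667 at the post-meiotic stage. The median of all 23251 genes was 7.35 FPKM in hda108 and 7.35 FPKM in WT at the mitotic stage, and 9.27 FPKM in hda108 and 9.91 FPKM in WT at the post-meiotic stage. With equal FPKM sums, 215 of the higher genes were below WT at the mitotic and 238 at the post-meiotic stage, and of the lower genes 354 at the mitotic and 219 at the post-meiotic stage. Of all genes, 4220 were then below WT at the mitotic and 5350 at the post-meiotic stage.

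**Figure D5:**
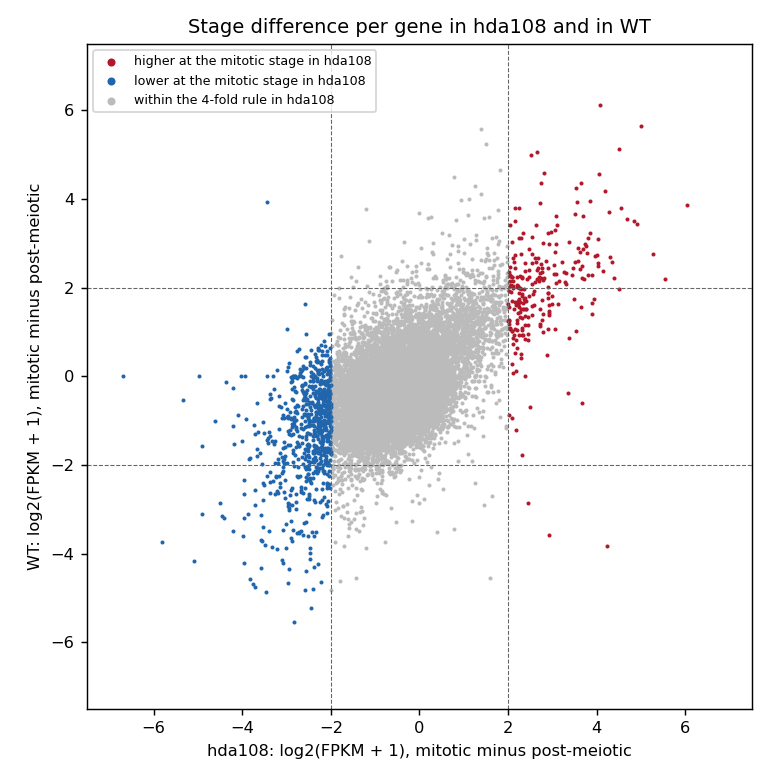
Stage difference (mitotic minus post-meiotic, log2 of FPKM + 1) of each of 23251 genes in hda108 on the horizontal and in WT on the vertical axis, coloured by its call in hda108, with dashed lines at the size rule. Of the genes called higher in hda108, 237 of 248 lie above 0 on the WT axis, and of those called lower, 632 of 715 lie below 0.

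Across the 23251 genes, the stage differences of both genotypes had a Pearson r of 0.52 and a Spearman rho of 0.38. These genotypes share no library, but genes are not independent replicates and each axis carries its own scaling. A few named genes stood out for the gap between their stage differences in hda108 and WT. plt1 (GRMZM2G101958, chromosome 10), a phospholipid transfer protein gene, was at 2288 FPKM at the mitotic and 3666 FPKM at the post-meiotic stage of hda108, against 407 FPKM and 73.1 FPKM in WT. FIP1 was at 9.37 FPKM at the mitotic and 74.0 FPKM at the post-meiotic stage of hda108, against 497 FPKM and 503 FPKM in WT. see2b, a legumain-type protease gene known from leaf senescence, was at 56.1 FPKM at the mitotic and 13.7 FPKM at the post-meiotic stage of hda108, against 6.98 FPKM and 16.97 FPKM in WT. Whether these stage differences differ between the genotypes was not tested, since neither has a replicate value.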

How the data were processed

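RNA from maize anthers was measured in 8 libraries, 2 for each of 4 groups. Per the labels' protocols, total RNA was DNase-treated and depleted of ribosomal RNA before strand-specific library preparation, and reads came from an Illumina HiSeq2500. Tools listed in the submitters' processing notes, without their order, are CASAVA 1.8, Trimmomatic 0.33, Cuffdiff 2.2.1, Cufflinks, SAMtools and TopHat2 2.0.13, and the listed genome build is B73 RefGen_v3. Values in FPKM were deposited by the authors, 1 for each gene in each group, as the headers show. The combining and scaling of the libraries were not described in these sources. The homozygous columns were read as hda108, the only mutant genotype of the labels. FPKM hold no counts, so depth is unknown and no counting interval or floor is given.

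The stage difference was log2(FPKM + 1), mitotic minus post-meiotic, for genes of at least 1 FPKM at either stage. With 1 value per group, the planned moderated test of log values was not possible, and a difference of at least 2 was used as a rule of size. Alternatives were equal FPKM sums, median-ratio and quantile scaling of the 4 groups, a pseudocount of 0.1, a minimum of 5 FPKM, no minimum, and a rule of 1. The computation was tested on simulated data. Python 3.11.15, numpy 2.4.6, pandas 2.3.3 and matplotlib 3.10.9 were used.

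Names were looked up by ID in RefSeq's gene table (assembly Zm-B73-REFERENCE-NAM-5.0). A match was found for 19060 IDs, for 521 with several genes, and 2144 of the genes included had an informative name, by a pattern made after the names were seen. Coordinates are those deposited. The members and lists were chosen with earlier results of these data known. Of the 43 lists, 40 were matched by symbol, and 23 of these were then corrected after values had been seen, which left out 113 entries whose symbol had another sense and added 23, MST2 and the TIFY and cab-m genes among them. Counts and medians over lists cover only members that passed the FPKM minimum and support nothing by themselves. Named genes were HDA108, the 12 largest differences each way among named genes with at least 5 FPKM at the higher stage, the 5 largest each way of all genes, the 5 most abundant of each stage, every microRNA precursor included, and of each list the 3 largest differences and the 2 most abundant genes. Other genes in the text were chosen after their values were seen.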

Additional observations from a re-analysis of the deposited data

Results flagged for a closer look

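In all, 4 genes were past the size rule in both genotypes and in opposite directions. The gap between the stage differences is hda108 minus WT on the log2 scale, and it was not tested. GRMZM5G873249 was at 17.9 FPKM at the mitotic and listed at 0 at the post-meiotic stage of hda108, and listed at 0 at the mitotic and at 13.1 FPKM at the post-meiotic stage of WT, a gap of 8.06. MIR2118d (zma-MIR2118d), a precursor of a family known to cut phased small RNA loci in grass anthers, was at 6.59 FPKM at the mitotic and listed at 0 at the post-meiotic stage of hda108. In WT it was listed at 0 at the mitotic and at 11.01 FPKM at the post-meiotic stage, a gap of 6.51. GRMZM2G410865 was at 11.5 FPKM at the mitotic and 1.29 FPKM at the post-meiotic stage of hda108, against 0.539 FPKM and 10.1 FPKM in WT, a gap of 5.30. GRMZM2G051898 was at 0.0615 FPKM at the mitotic and 10.5 FPKM at the post-meiotic stage of hda108, against 14.3 FPKM at the mitotic stage and a value listed at 0 at the post-meiotic stage of WT, a gap of -7.37.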

How the results depend on the processing

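In hda108, 248 genes were higher and 715 lower at the mitotic stage. The higher genes numbered 465 under equal FPKM sums, 454 under quantile normalization, 404 with a pseudocount of 0.1 and 831 with a rule of 1. The lower genes numbered 466 under equal sums, 383 under median-ratio scaling, 1576 with a pseudocount of 0.1 and 3805 with a rule of 1. In WT, against 328 higher and 356 lower genes, the higher genes numbered 213 under equal sums, 601 under median-ratio scaling, 542 with a pseudocount of 0.1 and 1403 with a rule of 1. The lower WT genes numbered 208 under median-ratio scaling, 228 under quantile normalization, 933 with a pseudocount of 0.1 and 2757 with a rule of 1. A larger count with a rule of 1 or a pseudocount of 0.1 follows from construction, since the smaller pseudocount enlarges every difference. Under equal sums and median-ratio scaling the higher genes of hda108 could only gain in number. The cause of the other shifts was not tested. A minimum of 5 FPKM gave 243 higher and 699 lower genes in hda108. No minimum gave 248 and 715, which could not change, as a gene below the minimum cannot reach the size rule. All 248 higher genes remained under each scaling. Under equal sums and median-ratio scaling this was fixed in advance, since both raise hda108 mitotic values against post-meiotic ones. Of the 715 lower genes, 437 remained under equal sums, 383 under median-ratio scaling and 538 under quantile normalization. Of the 79 named genes past the rule, 15 left it under equal sums, 15 under median-ratio scaling and 8 under quantile normalization. None changed direction, but under equal sums and median-ratio scaling none could. Both multiply each group by a common factor, too small to reverse a difference of that size. Of 86 list entries past the rule, 62 stayed past it under all 3 scalings. List medians above 0 numbered 5 of 43, and 17 under equal sums. No list changed its side of the median of all genes under equal or median-ratio scaling. These scalings move most genes by a like amount, so that outcome was largely set in advance. In contrast, 2 lists changed side under quantile normalization, 4 with a minimum of 5 FPKM and 9 with no minimum. An alternative chosen after seeing the data, the lists as first matched, moved the photosynthesis median to -1.25, the jasmonate median to -1.10, the aquaporin median to -1.33, the pollen median to 0.16 and the tapetum median to -0.03. No paired analysis was possible because the deposited table holds 1 value per group and no replicate, so leaving out a replicate was not possible either. With no counts, what depth limits cannot be stated, and values listed at 0 give no fold.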

Other observations

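Several lists not described above had few genes past the rule, beside 3.08% of all genes lower and 1.07% higher. Of 39 ion and metal transport genes 1 was lower, of 23 genes of nitrogen and amino acid metabolism 1 was lower, and of 47 glutathione transferase and oxidative stress genes 2 were lower and 1 was higher. pht9, a phosphate transporter gene, was at 0.146 FPKM at the mitotic and 7.62 FPKM at the post-meiotic stage of hda108, against 0.0925 FPKM and 1.54 FPKM in WT. gln2, a glutamine synthetase gene, was at 144 FPKM at the mitotic and 589 FPKM at the post-meiotic stage of hda108, against 133 FPKM and 427 FPKM in WT. rf2c, an aldehyde dehydrogenase gene, was at 74.4 FPKM at the mitotic and 416 FPKM at the post-meiotic stage of hda108, against 190.1 FPKM and 466 FPKM in WT. Of 25 heat shock genes, 2 were lower and none was higher in hda108, with all 25 below 0 and a median of -0.79. HSP90-1, a chaperone, was at 2.68 FPKM at the mitotic and 16.5 FPKM at the post-meiotic stage of hda108, against 2.22 FPKM and 6.79 FPKM in WT. Of 10 phenylpropanoid and lignin genes 2 were lower, among them cad1, an alcohol dehydrogenase of lignin synthesis, at 6.00 FPKM at the mitotic and 29.0 FPKM at the post-meiotic stage of hda108. Under equal sums gln2, both heat shock genes and both lignin genes left the size rule, with differences between -1.56 and -1.96.

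The 5 largest negative differences included GRMZM2G498613, a locus of 109 bases, which was at 103 FPKM at the post-meiotic stage of hda108 and listed at 0 in the other 3 groups. GRMZM2G700208 was at 19.1 FPKM at the mitotic and 808 FPKM at the post-meiotic stage of hda108, against 0.753 FPKM and 1.52 FPKM in WT. Of the 23251 genes included, 57 were listed at 0 at the mitotic and 36 at the post-meiotic stage of hda108, with a median at the other stage of 1.71 FPKM for the 57 and 1.93 FPKM for the 36.

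GRMZM2G107839 (chromosome 3), with no matched name, was the most abundant gene at the post-meiotic stage of hda108, at 4395 FPKM at the mitotic and 14478 FPKM at the post-meiotic stage. It stayed within the size rule at -1.72, and in WT it was at 1348 FPKM at the mitotic and 3958 FPKM at the post-meiotic stage. GRMZM2G114356 (chromosome 1) was called lower, at 382 FPKM at the mitotic and 4259 FPKM at the post-meiotic stage of hda108, against 214 FPKM and 3012 FPKM in WT. The most abundant gene at the mitotic stage, GRMZM5G807592, is encoded in the mitochondrion and was at 6675 FPKM at the mitotic and 5009.6 FPKM at the post-meiotic stage of hda108.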
